A study of Mus musculus with 48 samples.

Results

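Tomm20 and Tomm70a, genes of the preprotein receptors on the outer mitochondrial membrane, were compared in hippocampal microglia between 3 rearing groups of mouse pups. They are the genes in the deposited tables whose symbol starts with Tomm or Timm, 2 of 478 genes per table, and both belong to the outer membrane translocase. The RefSeq table used for names (GRCm38.p6) lists 26 protein-coding genes with such symbols, 10 Tomm and 16 Timm, and the others were not analysed here. The genes were picked by name, but earlier results of these data were known when the choice was made.

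Microglia, which are the macrophages resident in the brain, were purified from the hippocampus of Balbc/Byj pups of both sexes at 17 days of age by Percoll gradient and flow cytometry. RNA of 60000 cells per animal was counted with the nCounter glial panel, in which barcoded probes are counted directly. Pups were reared as controls (CTL) or under the conditions labelled LB and UPS, with 16 animals per group, 8 of each sex, in 4 batches that each held 2 animals of every group and sex. As background, LB is rearing with limited bedding and nesting material and UPS adds unpredictable stress; both are models of early-life stress. Each combination of rearing and sex drew on 4 to 5 litters, so that littermates were among the animals, and intervals and p-values come out too narrow and too small if littermates are alike. The values are those of the authors' deposited tables, 1 per pair of groups with the sexes pooled. Values of single animals were not used, so neither depth, nor the level of a gene, nor the number of animals that share a direction is known.

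Nearly all mitochondrial proteins are made in the cytosol and imported through the translocase of the outer membrane (TOM), after which the translocases of the inner membrane (TIM) pass them inward. Tomm20 encodes the receptor that recognises N-terminal targeting presequences. Tomm70a (now Tomm70) encodes the receptor that takes precursors with internal signals, such as solute carriers, from cytosolic Hsp70 and Hsp90 chaperones. TOM70 also binds the antiviral adaptor MAVS, which links the organelle to innate immune signalling.

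The 250 bases before each annotated start are shown because they are the only reference sequence of the members used here and let the genes be set side by side. They come from RefSeq, build GRCm38.p6, the Tomm20 window from chr8:126945922-126946171 on the minus strand and the Tomm70a window from chr16:57121464-57121713 on the plus strand. Capitals mark matches to 2 motifs, searched on both strands and picked with these sequences in view.
Tomm20: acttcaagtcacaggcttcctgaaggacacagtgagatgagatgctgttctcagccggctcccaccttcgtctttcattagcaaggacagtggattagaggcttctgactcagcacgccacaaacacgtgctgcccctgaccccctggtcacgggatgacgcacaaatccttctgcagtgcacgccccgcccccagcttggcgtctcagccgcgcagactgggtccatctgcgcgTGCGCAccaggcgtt
Tomm70a: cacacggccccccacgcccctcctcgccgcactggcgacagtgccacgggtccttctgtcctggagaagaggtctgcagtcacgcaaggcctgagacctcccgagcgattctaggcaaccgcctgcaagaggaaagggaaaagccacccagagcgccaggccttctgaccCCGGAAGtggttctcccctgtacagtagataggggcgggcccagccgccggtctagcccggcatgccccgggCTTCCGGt
The Tomm20 window held 1 match to the half-site of the NRF-1 motif (TGCGCA, the same letters on both strands), 15 to 10 bases before the start, and none to the ETS core. The Tomm70a window held 2 matches to the ETS core (CCGGAAG), read by GABP among other factors, at 80 to 74 bases and, on the other strand, at 8 to 2 bases before the start, and none to the NRF-1 half-site. No motif overlapped another. The NRF-1 half-site occurred in 6.43% of 32851 RefSeq windows of this length and in 9.33% of the 461 windows of 360 genes in the tables; the ETS core occurred in 6.91% and 10.6%. A match describes letters, not a bound site, and binding was not measured. The windows hold 59.6% G and C for Tomm20 and 66.8% for Tomm70a.

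Tomm70a differed between UPS and each of the other groups, at 0.92 and 0.919 times as linear ratios of the authors' deposited tables, and no difference was detected between CTL and LB. Tomm20 passed in no comparison. The numerator of each ratio is not stated in the tables, so signs are those of the tables. Read as second group over first, the ratios mean less Tomm70a transcript in UPS; read the other way, more, with all signs of the 3 tables turned at once. In bulk RNA of sorted cells, fewer cells carrying a transcript and less transcript per cell cannot be told apart.

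For CTL and UPS, the log2 ratio of Tomm70a in the authors' deposited table was -0.12, a linear ratio of 0.92 (standard error 0.035 and 95% interval -0.19 to -0.050, both recovered from ratio and p; p = 0.00121, adjusted p = 0.0361 by Benjamini-Hochberg over the 478 genes). On the linear scale that interval spans 0.877 to 0.966 times, a change of -12.3% to -3.42%. Of all genes in that comparison 4.81% passed in either direction and 1.26%, or 6 genes, with a negative ratio. Tomm70a had the rank 16 by p.

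For LB and UPS, its log2 ratio in the authors' deposited table was -0.12 again, a linear ratio of 0.919 (95% interval 0.876-fold to 0.964-fold, p = 0.00103, adjusted p = 0.0206 by Benjamini-Hochberg). In this comparison 6.28% of genes passed, 1.67% or 8 genes with a negative ratio, and Tomm70a had the rank 23 by p. The table of LB and UPS tests directly whether the ratios against CTL differ between the stress groups. Both comparisons use the same UPS animals and are not independent of each other. The stricter Benjamini-Yekutieli adjustment ended both calls (adjusted p = 0.244 and 0.138), as did Holm's (0.560 and 0.470).

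Between CTL and LB the log2 ratio of Tomm70a in the authors' deposited table was 0.0019 (p = 0.957, adjusted p = 0.98 by Benjamini-Hochberg). Its interval, from 0.954-fold to 1.05-fold, excludes a difference as large as the 0.92-fold between CTL and UPS. No gene passed in that comparison (0.00% of 478) by the deposited p with Benjamini-Hochberg adjustment, while 56 had an unadjusted p below 0.05, and neither member was among them. In the order of the groups UPS therefore stood at one end, and the neighbours CTL and LB did not differ beyond their error. Set against the mean of CTL and LB, a contrast added after the values were seen, the log2 ratio of Tomm70a for UPS was -0.12 (95% interval -0.18 to -0.061), or 0.920-fold.

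Tomm20 gave log2 ratios of 0.071 between CTL and LB, 0.045 between CTL and UPS and -0.026 between LB and UPS in the authors' deposited tables (p = 0.229, 0.444 and 0.656; adjusted p = 0.648, 0.732 and 0.833 by Benjamini-Hochberg). Their 95% intervals, as linear ratios, were 0.969 to 1.14, 0.951 to 1.12 and 0.906 to 1.06. CTL stood at one end and LB at the other, and no neighbours in that order differed beyond their error. A Tomm20 difference of the size and sign of that of Tomm70a lies outside the interval for CTL and UPS and inside that for LB and UPS, so for the latter pair it is not excluded.

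**Figure D1:**
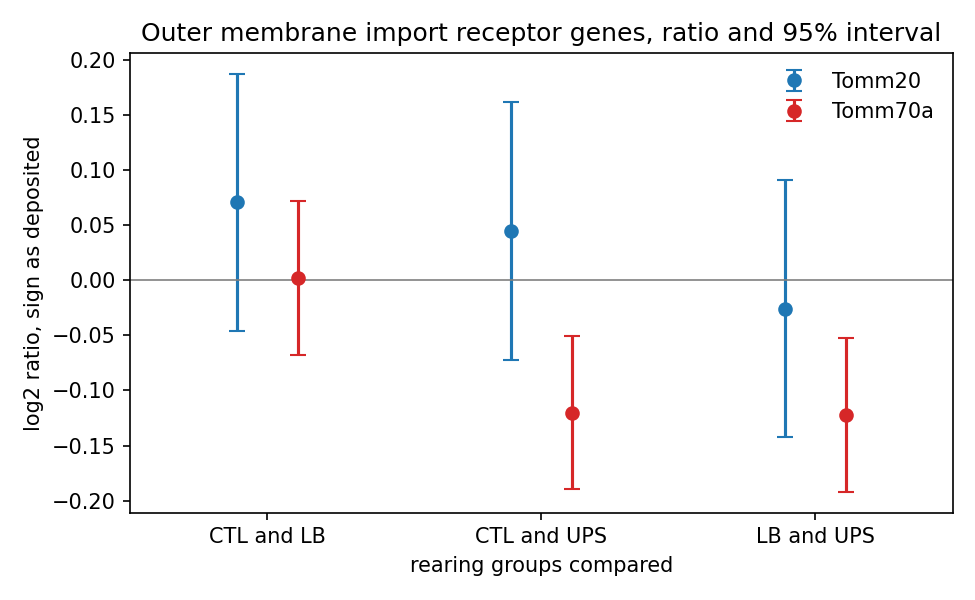
Log2 ratios (vertical axis, sign as deposited) of Tomm20 (blue) and Tomm70a (red) for the 3 pairs of rearing groups, with points at the deposited ratio and bars for the 95% interval recovered from ratio and p. Both Tomm70a intervals that involve UPS lie below 0, at -0.19 to -0.050 and -0.19 to -0.052, and all 3 Tomm20 intervals span 0.

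Whether the receptors differ from each other depends on how they vary together across animals, which was not measured here. Between CTL and UPS the log2 ratio of Tomm70a in the authors' deposited table was 0.16 below that of Tomm20 (difference -0.16). With the widest possible error, a correlation of -1 between the genes, the 95% interval of that difference was -0.35 to 0.022, and with a correlation of 0 it was -0.30 to -0.029. Between LB and UPS the difference was -0.096, and the interval included 0 under both assumptions (-0.28 to 0.090 and -0.23 to 0.040). Positive correlations, which would give narrower intervals, were not tried. The passing of Tomm70a and not of Tomm20 is thus not shown to be a difference between the genes. This check was added after the values were seen.

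An F test over the 3 rearing groups, computed from the deposited ratios and the recovered errors, asked whether a gene differed among the groups at all. Tomm70a passed (F = 8.16 on 2 and 42 degrees of freedom, p = 0.00101, adjusted p = 0.0202 by Benjamini-Hochberg over 478 genes), and Tomm20 did not (F = 0.763, adjusted p = 0.679). In all, 33 genes, 6.90%, passed this test. It restates the 3 comparisons as 1 and adds no further animals.

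The ratio of Tomm70a was small among the genes that passed, and its precision was high. Of all genes 18.2% had a smaller recovered standard error, against 63.4% for Tomm20, whose error was 0.058. Between CTL and UPS, 84 genes had a larger log2 ratio than Tomm70a in size, of which 65 did not pass and 19 did. Between LB and UPS these were 93, 66 and 27. The median size of the log2 ratios that passed was 0.18 in either comparison.

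**Figure D2:**
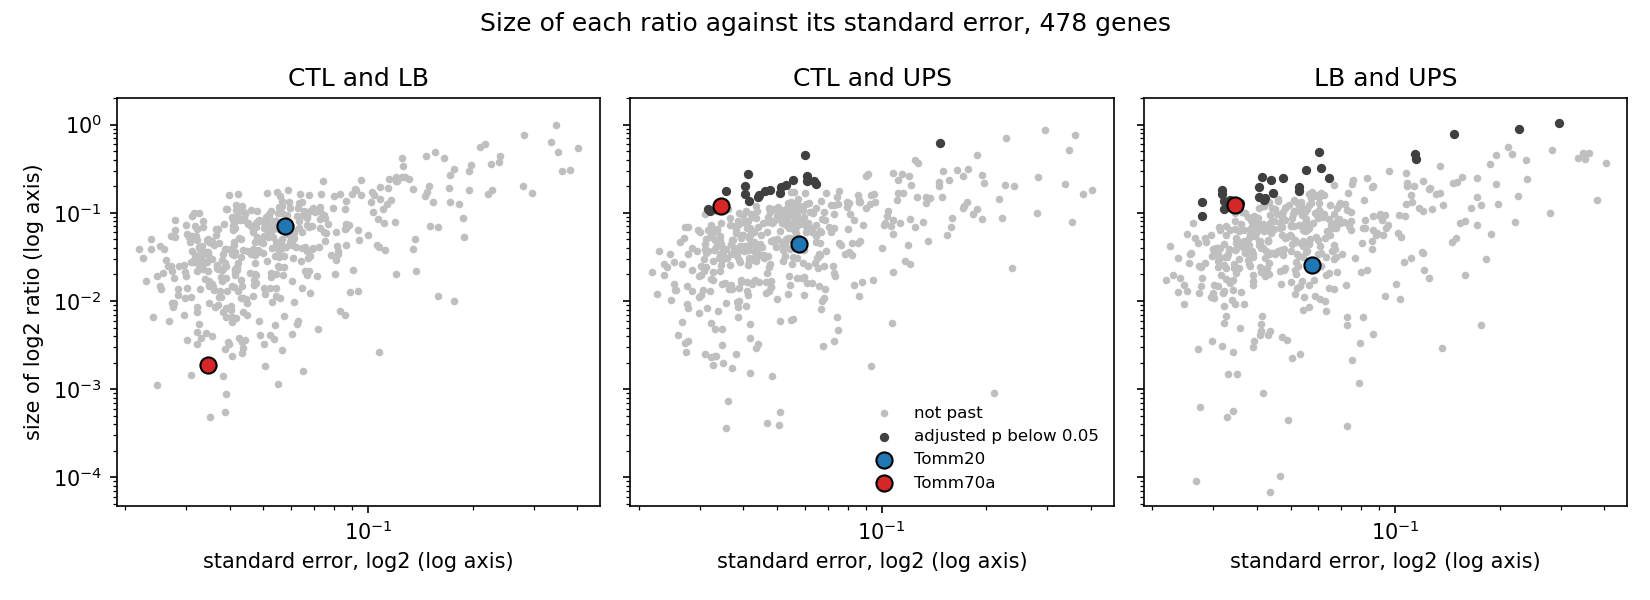
Size of the log2 ratio (vertical, log axis) against its recovered standard error (horizontal, log axis) for 478 genes in the 3 comparisons, with genes past an adjusted p of 0.05 in dark grey. Tomm70a (red, standard error 0.035) sits among the genes that passed in the comparisons with UPS, with an error below the median of 0.050 over all genes, and Tomm20 (blue, 0.058) sits among those that did not.

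The other import genes gave no called difference. Of 22 partners on the list, 2 were measured, and neither passed in any pair. Hspa9, the mitochondrial Hsp70 (mortalin) that pulls precursors into the matrix, had log2 ratios of 0.11 (CTL and LB), 0.067 (CTL and UPS) and -0.040 (LB and UPS) in the authors' deposited tables, with a smallest adjusted p of 0.267 by Benjamini-Hochberg. The Hspa9 interval for CTL and LB, 0.023 to 0.19, lay clear of 0 before adjustment over genes (deposited p = 0.014). Samm50, the core of the machinery that inserts beta-barrel proteins into the outer membrane, lay at 0.0095, -0.0027 and -0.012 in the authors' deposited tables in the same order. Its interval for CTL and UPS, -0.058 to 0.052, excludes a log2 difference as large as that of Tomm70a.

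The cytosolic chaperones that hand precursors to TOM70 were represented by 2 of 8 listed genes, and their signs were opposed in the comparisons with UPS. Hsp90ab1, the constitutive cytosolic Hsp90, was at 0.13 between CTL and UPS and 0.21 between LB and UPS in the authors' deposited tables (adjusted p = 0.403 and 0.0809 by Benjamini-Hochberg). Dnaja2, an Hsp40 co-chaperone of Hsp70, was at -0.11 and -0.072 in the authors' deposited tables (adjusted p = 0.294 and 0.464). None passed.

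Solute carriers of the inner membrane are typical cargo of TOM70, and 2 were measured. The ADP/ATP carrier gene Slc25a4 was at 0.029, -0.0048 and -0.034 in the authors' deposited tables for CTL and LB, CTL and UPS, and LB and UPS. The aspartate-glutamate carrier gene Slc25a12 was at -0.091, 0.067 and 0.16 (smallest adjusted p = 0.13) in the authors' deposited tables. Neither passed, and neither had the sign of Tomm70a with an interval clear of 0.

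Across 7 mitochondrial lists, 18 genes were measured in 6 of them; none was measured for biogenesis. The lists are not complete. Dlat, Acat1, Acadsb, Pcca, Pccb, Mmut, Immt and Chchd3, also mitochondrial, were measured and lie outside them. None of these passed, and their smallest adjusted p by Benjamini-Hochberg was 0.0597, for Acat1 between CTL and UPS (log2 ratio -0.17). None of the 18 passed between CTL and LB or between CTL and UPS, where 0.00% and 4.81% of all genes did. Between LB and UPS 1 of 18 passed against 6.28% of all genes, with a negative ratio. This was Atp5g3, a gene of the c subunit of ATP synthase. Its log2 ratio was -0.14 in the authors' deposited table (adjusted p = 0.0277 by Benjamini-Hochberg). The Atp5g3 interval was -0.23 to -0.057, and its ratio between CTL and UPS, -0.055 in the authors' deposited table, missed the threshold.

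The median log2 ratio of the 18 genes was 0.025 between CTL and LB, -0.018 between CTL and UPS and -0.039 between LB and UPS, beside 0.0035, -0.0025 and -0.010 over all genes tested. Ratios were negative for 4, 12 and 13 of the 18 genes, beside 47.3%, 51.3% and 56.1% of all genes. In the comparisons with UPS these shifts are smaller than the change of Tomm70a, and between CTL and LB larger than its ratio. They carry no test. Of the listed pyruvate dehydrogenase subunit genes, Pdha1 was at 0.041, 0.13 and 0.090 and Pdhb at 0.066, -0.034 and -0.099 for CTL and LB, CTL and UPS, and LB and UPS in the authors' deposited tables (smallest adjusted p = 0.298 and 0.1). Dlat, a subunit gene of that complex outside the lists, was at 0.13, -0.027 and -0.16 in the same order (smallest adjusted p = 0.105 by Benjamini-Hochberg). The outer membrane channels Vdac1 and Vdac3 were at -0.049 and -0.022 between CTL and UPS in the authors' deposited table, and the fission GTPase gene Dnm1l was at -0.037 there. For LB and UPS in the authors' deposited table, the fatty acid oxidation genes Hadh and Acadm were at -0.083 and -0.040, the complex I gene Ndufb5 at -0.074, the dihydrolipoamide dehydrogenase gene Dld at -0.045 and the ATP synthase stalk gene Atp5pb at 0.018. Between CTL and UPS these 5 were at -0.048, 0.013, -0.034, -0.0295 and -0.021 in the same gene order. Between CTL and LB they were at 0.036, 0.053, 0.041, 0.016 and -0.039. Vdac1, Vdac3 and Dnm1l were at -0.038, -0.047 and -0.048 between LB and UPS. None of these passed.

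On the list for peroxisomal import 1 gene was measured, Slc25a17. Its product is a solute carrier of the peroxisomal membrane and not part of the protein import machinery. It passed between LB and UPS with -0.13 by the authors' deposited table (adjusted p = 0.00813 by Benjamini-Hochberg) and did not between CTL and UPS (-0.065, adjusted p = 0.322). The negative sign is that of Tomm70a. Outside the lists, the peroxisomal carnitine octanoyltransferase gene Crot passed with that sign in both comparisons with UPS. Its log2 ratio was -0.11 for CTL and UPS and -0.14 for LB and UPS (adjusted p = 0.0461 and 0.00629 by Benjamini-Hochberg). The peroxisomal genes Hsd17b4, Phyh and Scp2, also outside the lists, passed in neither.

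**Figure D3:**
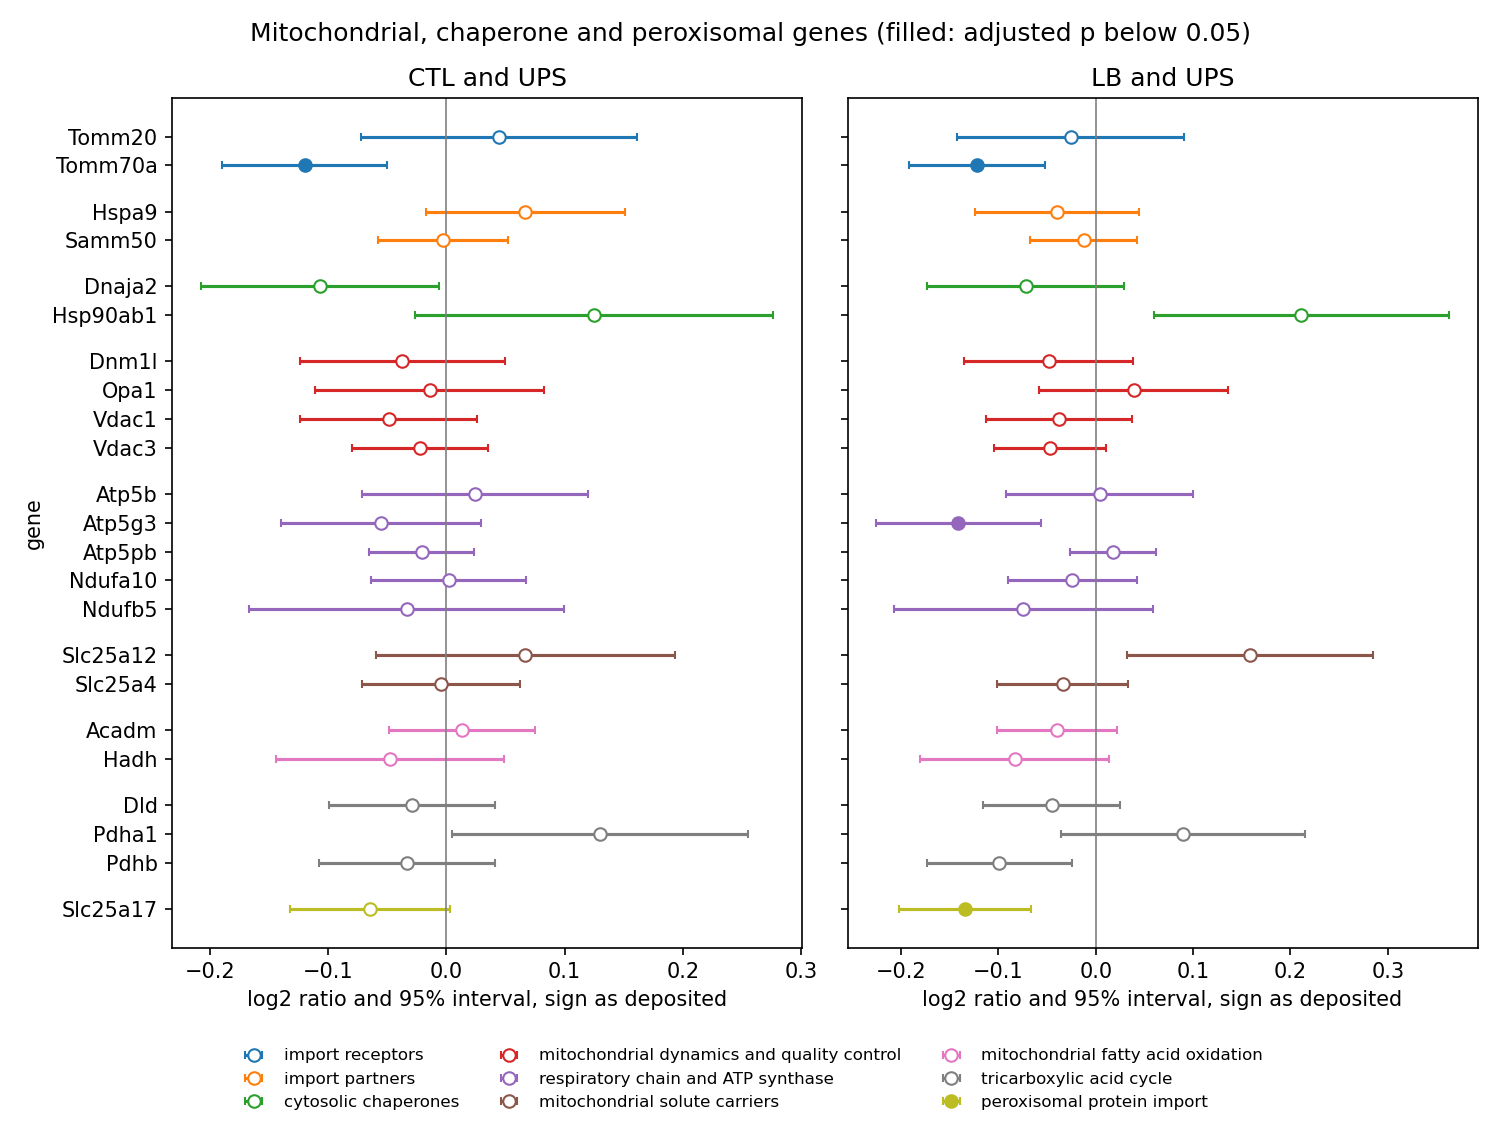
Log2 ratios with 95% intervals (horizontal, sign as deposited) of the import receptors and the listed mitochondrial, chaperone and peroxisomal genes, for CTL and UPS (left) and LB and UPS (right); filled points passed an adjusted p of 0.05. Tomm70a is the only filled point on the left, and Tomm70a, Atp5g3 and Slc25a17 are filled on the right. The peroxisomal gene Crot, which passed in both comparisons but near the threshold for CTL and UPS, is outside the lists and not shown.

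The genes nearest to Tomm70a over the log2 ratios of the 3 pairs of groups were Spp1, Ranbp9 and Kcnk13, at Euclidean distances of 0.016, 0.017 and 0.019. Spp1, the secreted phosphoprotein osteopontin, was at -0.010, -0.13 and -0.12 in the authors' deposited tables with a wide standard error of 0.18 and did not pass. Ranbp9, a Ran-binding scaffold protein, was at 0.015, -0.12 and -0.13 in the authors' deposited tables (adjusted p = 0.0519 between LB and UPS) and did not pass. Kcnk13, the potassium channel THIK-1 of microglia, was at 0.0044, -0.11 and -0.11 in the authors' deposited tables and passed in both comparisons with UPS (adjusted p = 0.0461 and 0.0244 by Benjamini-Hochberg). After centring on the median gene, its adjusted p between CTL and UPS was 0.0527, and with the 3 tables adjusted together it was 0.0544. With 3 groups such likeness rests on few points.

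All 10 listed microglial marker genes were among the genes of the tables. None passed between CTL and LB or between CTL and UPS, and between LB and UPS Tmem119, a microglial surface protein, did (0.46 in the authors' deposited table, adjusted p = 0.0076 by Benjamini-Hochberg); the other markers ranged down to -0.073. The tables hold ratios and no levels, so the presence of a marker could not be checked. Of 30 listed markers of 6 other cell classes 6 were measured, with log2 ratios from -0.088 to 0.21 between CTL and UPS and from -0.020 to 0.25 between LB and UPS. Stab1, of border macrophages, and Slc1a3, of astrocytes, passed in both comparisons with UPS, with the sign opposite to Tomm70a. Each was the 1 measured gene of its list, so neither stands for its class, and the marker lists are not complete. Stab1 was at 0.21 and 0.20 and Slc1a3 at 0.21 and 0.25 in the authors' deposited tables for CTL and UPS and for LB and UPS. With the 3 tables adjusted together the adjusted p of Slc1a3 for CTL and UPS was 0.0559. Their part in the Tomm70a result was not tested.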

How the data were processed

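RNA of sorted microglia from 48 animals was counted on the nCounter glial panel. Per the file headers, the authors' deposited tables give each gene's log2 fold change, the same as a linear ratio, the p-value, and that p adjusted by Benjamini-Hochberg. Per the series text they came from nSolver, on genes above 20 counts, with batch as a covariate; how counts were normalized is not stated there.

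No model was refitted. The threshold was an adjusted p of 0.05, recomputed over the 478 genes of a table; the deposited adjusted p gave the same calls. The 3 log2 ratios of a gene added up to within 0.003. Standard errors came from the log2 ratio divided by the t quantile of its p (two-sided, 42 degrees of freedom), taking the table with the smallest p. They spread by a median of 0.329% over the 3 tables of a gene (0.325% on 43, 0.345% on 44 and 0.908% on 27 degrees of freedom). The F statistic is the sum of the 3 squared ratios over 3 times the squared error, which assumes equal groups; it was tested on simulated data.

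Named were all members, the measured import partners, up to 3 genes of smallest p and all that passed from each further list, the 3 nearest genes to a member that passed, and other cell markers that passed. Genes said to lie outside the lists were named in addition to this rule. Members and lists were chosen with earlier results of these data known. Gene names matched the RefSeq table for 477 of 478 genes. Python 3.11.15 and scipy 1.17.1 were used.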

Additional observations from a re-analysis of the deposited data

Results flagged for a closer look

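Of the genes named by the rule above, the following differed between LB and UPS in the authors' deposited table. That table tests whether the ratios against the shared CTL animals differ between the stress groups. The log2 ratios there were -0.122 for Tomm70a, -0.141 for Atp5g3, -0.134 for Slc25a17, -0.11 for Kcnk13, 0.462 for Tmem119, 0.195 for Stab1 and 0.25 for Slc1a3. The ratios of Atp5g3, Slc25a17, Tmem119 and Slc1a3 against CTL had opposite signs in LB and UPS, and those of Tomm70a, Kcnk13 and Stab1 were near 0 in LB. None of these genes passed between CTL and LB, and Atp5g3, Slc25a17 and Tmem119 did not pass between CTL and UPS either. Opposite changes in LB and UPS are thus not shown.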

How the results depend on the processing

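The Tomm70a calls kept their direction and passed with the deposited adjusted p, with the 3 tables adjusted together (adjusted p = 0.0404 for CTL and UPS, 0.0360 for LB and UPS) and after centring on the median gene (0.0396 and 0.0395). Under Benjamini-Yekutieli adjustment 0 members passed between CTL and UPS, between LB and UPS and in the F test (Tomm70a 0.244, 0.138 and 0.136), and under Holm 0 passed in the first pair and 0 in the second (0.560 and 0.470); these procedures guard against any dependence or any false call and are stricter by construction. For the genes named by the rule above, all 11 calls in the 3 pairs, Tomm70a included, were lost under each of them. The F test adjusted p of Tomm70a was 0.0341 after centring and 0.0200 to 0.0202 on 44 and 41 degrees of freedom. No Tomm20 call changed. The deposited tables carry no value per animal, so the calls were not checked within batches, within a sex, by litter or without single animals. No paired analysis was possible because the tables hold no values per library and the labels' numbers cannot be used as a block.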
